A study of Mus musculus with 6 samples.

Results

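Autophagy delivers cytoplasm and organelles to the lysosome in a double membrane, the autophagosome. The mRNA of its core machinery was measured in mouse liver. The members are 37 genes taken by name, among them the initiation kinases, the lipid kinase complex, lipid supply, the conjugation enzymes, the LC3 genes, cargo receptors and the transcription factor Tfeb. All 37 were found among the 17441 genes of the deposited table, and all 37 passed the filter on low counts with 13160 genes in all.

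RNA-seq was run on 6 livers in 2 groups of 3. WT livers came from animals labelled wild type, and iKO livers from animals labelled as a tamoxifen-inducible knockout of the kinase gene Nek7 in the whole body. Every liver of both groups, WT included, was taken 10 days after tamoxifen. The sources used here give no strain, age, sex, Cre driver or hour of collection. The labels number the livers and do not say that each came from its own animal, so p-values measure the spread between these samples, which may be technical.

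In a starved cell the ULK1 kinase complex starts autophagy, a class III PI3-kinase complex then marks the membrane with PI3P, and a conjugation system attaches LC3 to its lipid. Receptors such as p62 (Sqstm1) and BNIP3 hold cargo and bind LC3. The liver is known for strong autophagy in fasting, and TFEB and FOXO factors drive the genes of autophagy and the lysosome.

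The libraries held between 18139507 and 19911983 expected counts. CPM below are counts scaled to library size with TMM factors. Nek7 itself gave 44.1 ± 10.1 CPM in WT against 38.0 ± 10.6 CPM under the iKO label (SD, n = 3 each, edgeR adjusted p = 0.541), with fractional expected counts in all 6 libraries. The gene total counts every exon and does not set the labelled groups apart, so "iKO" below means the libraries labelled iKO. WT 2 and WT 3 gave 0 reads of the Y-linked genes Ddx3y and Kdm5d together, where the other 4 libraries gave 573 to 1113 expected counts, so Y-linked reads and the group labels are mixed, and the labels give no sex. Short transcripts tended to have higher log2 fold changes: over genes, which are no independent replicates, Spearman's rho with effective length was -0.353. Markers of other liver cells moved with the labels. Of 9 stellate cell markers 7 fell, and their summed level ran from 324.8 to 541.5 CPM in WT and from 155.8 to 185.7 CPM in iKO. Of 10 Kupffer cell markers 6 fell (388.9 to 726.2 against 271.0 to 342.6 CPM), and so did 3 of 9 sinusoidal endothelial markers (176.5 to 278.5 against 75.5 to 151.5 CPM) and 5 of 9 neutrophil markers (29.8 to 124.9 against 15.5 to 37.6 CPM). Hepatocyte markers summed to between 108100 and 120800 CPM in WT and between 106700 and 119600 CPM in iKO, with 1 of 8 called (Hnf4a, higher). Of cholangiocyte, lymphocyte and erythroid markers 0 of 6, 0 of 8 and 0 of 3 were called, no adipocyte marker passed the filter on low counts, and in every list 0 of the markers found stood at 0 in all 6 livers. The part of these cells in the results below was not tested, and in bulk tissue fewer cells of a type and less RNA per cell cannot be told apart.

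Of the 37 genes 7 rose and 1 fell in iKO (edgeR's quasi-likelihood test, Benjamini-Hochberg adjusted p under 0.05 over all genes tested). That is 21.6% of the members, where 15.4% of all tested genes were called. By direction, 18.9% of the members were called higher against 7.31% of all genes, and 2.70% lower against 8.07%. The genes that rose were Pik3c3, Bnip3, Map1lc3b, Tfeb, Atg16l1, Map1lc3a and Atg4d, and the gene that fell was Pik3r4. The members' median log2 fold change was 0.11, beside -0.02 over all genes tested. The scale changed the count of each direction. The CPM ranges of the groups did not overlap for 9 members that were higher and 3 that were lower, against 19.8% and 19.2% of all genes. On the authors' TPM scale, which does not correct for a few abundant genes, the counts were 6 higher and 9 lower, against 6.19% and 25.8% of all genes. The limma fit of log2(FPKM + 1) called 4 members higher and 2 lower, where 3.2% and 7.07% of all genes were called. On both the CPM and the TPM scale 5 members (Pik3c3, Map1lc3a, Map1lc3b, Bnip3 and Tfeb) were higher without overlap and 3 (Pik3r4, Atg2b and Atg5) lower. The share of all genes without overlap on both scales was not counted, so no excess is read from these members.

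**Figure D1:**
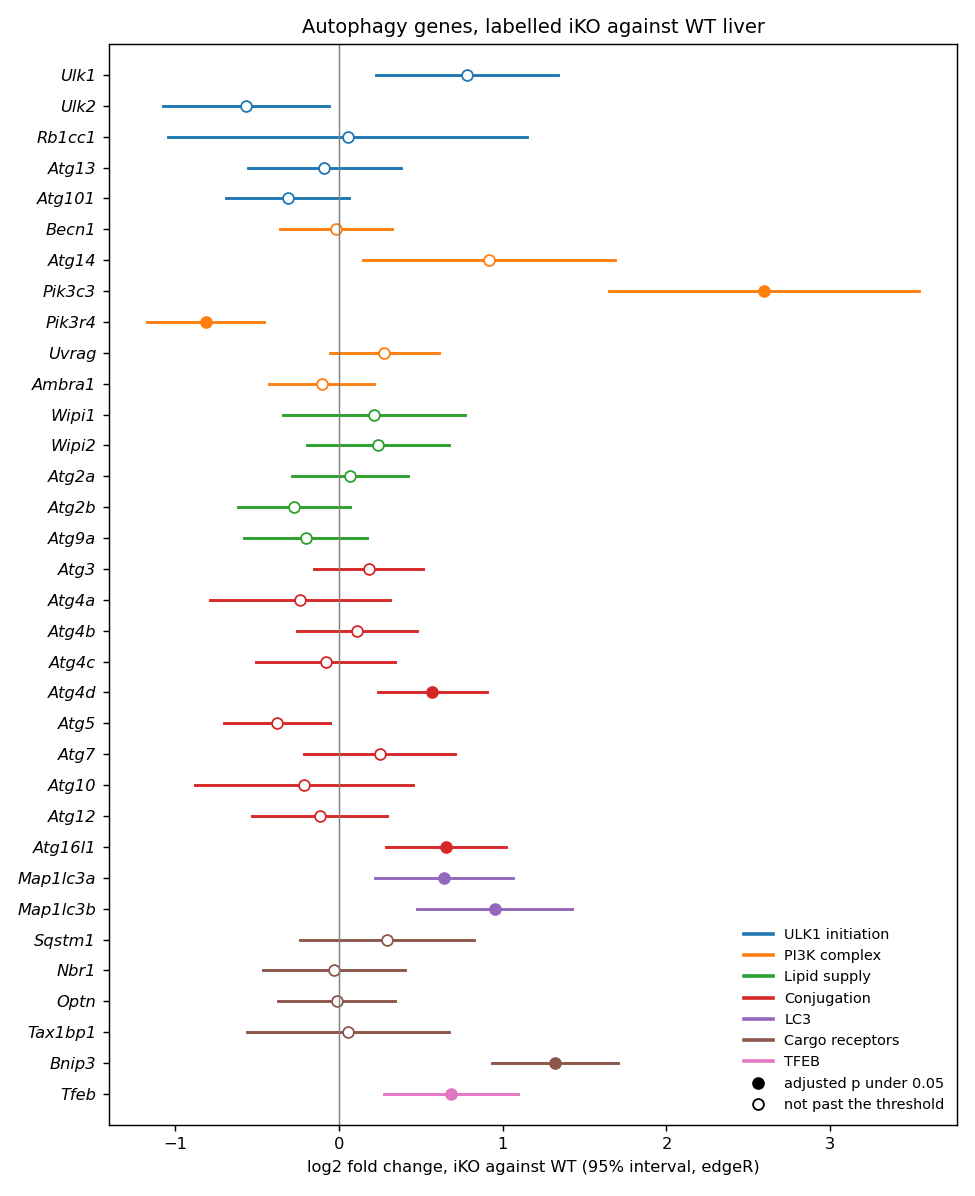
Log2 fold change of 34 of the 37 autophagy genes, iKO against WT, with the 95% interval from the edgeR fit, coloured by role; filled points passed adjusted p 0.05. Pik3c3 at 2.59 lies farthest to the right and Pik3r4 at -0.81 farthest to the left.

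The stretch before the start site is shown for Bnip3, Map1lc3b and Pik3r4, because their values did not overlap between groups on either scale and their calls rank among the steadier ones below. Each is the 250 bases before the RefSeq gene start in GRCm38.p6, a build other than the mm9 of the deposited table, printed along the strand of the gene. Bnip3 lies at chr7:138909507-138909756 on the minus strand, Map1lc3b at chr8:121590188-121590437 on the plus strand and Pik3r4 at chr9:105642745-105642994 on the plus strand. Capitals mark a match to any of the 4 motifs named after the sequences.
Bnip3: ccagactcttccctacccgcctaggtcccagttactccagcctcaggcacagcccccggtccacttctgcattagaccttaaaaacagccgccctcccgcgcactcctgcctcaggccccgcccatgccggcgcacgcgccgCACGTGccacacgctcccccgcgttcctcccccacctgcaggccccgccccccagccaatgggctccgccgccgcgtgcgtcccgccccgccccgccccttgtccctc
Map1lc3b: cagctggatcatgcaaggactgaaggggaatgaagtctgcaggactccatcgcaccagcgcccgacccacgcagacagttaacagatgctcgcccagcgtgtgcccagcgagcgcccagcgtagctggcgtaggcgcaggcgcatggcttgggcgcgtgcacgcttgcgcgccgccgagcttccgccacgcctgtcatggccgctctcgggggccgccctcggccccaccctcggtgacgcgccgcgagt
Pik3r4: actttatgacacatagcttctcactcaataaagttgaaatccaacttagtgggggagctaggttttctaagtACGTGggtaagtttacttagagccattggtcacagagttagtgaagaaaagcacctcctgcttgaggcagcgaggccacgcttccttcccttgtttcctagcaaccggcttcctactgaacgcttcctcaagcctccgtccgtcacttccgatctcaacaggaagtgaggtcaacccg

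The letters searched on both strands were CACGTG (the E-box that TFEB and the clock factors bind), ACGTG (a form of the core of hypoxia response elements, also contained in the E-box), TTANGTAA (the D-box) and GTAAACA (bound by FOX factors). Other forms of the hypoxia core were not searched and are not marked. The RefSeq table held 37 windows for 31 of the 37 members. The E-box was found before 4 members (Atg3, Atg5, Atg7 and Bnip3), in 4 of their 37 windows, and in 6.02% of the 32851 windows of all genes. In Bnip3 it begins 108 bases before the start. ACGTG was found in 14 of the 37 windows, beside 16.6% of all windows, and Pik3r4 holds 1 match, which begins 178 bases before the start. Neither the D-box nor the FOX motif was found in a member window (0 of 37 each, beside 2.06% and 3.17% of all windows). Map1lc3b held 0 matches to any of the 4.

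The largest difference lay in the PI3-kinase complex, where the catalytic subunit and its regulatory partner went opposite ways. Pik3c3 (gene ID 225326) encodes VPS34, the kinase that makes PI3P. It stood at 57.0, 67.5 and 68.1 CPM in the 3 WT livers against 521, 158 and 485 CPM in iKO 1, iKO 2 and iKO 3. All 3 iKO livers were above every WT liver, and iKO 2 was well below the other two. By edgeR the log2 fold change was 2.59 with an SE of 0.41 (adjusted p = 0.00759), or 6.04-fold with a 95% interval of 3.13 to 11.6. Expected counts of Pik3c3 were not whole in all 6 libraries, a sign that reads may be shared with other genes, so its level is less certain.

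Pik3r4 (gene ID 75669) encodes VPS15, the scaffold that VPS34 needs. It was read at 23.3, 22.3 and 21.6 CPM in WT against 12.8, 14.4 and 11 CPM in iKO. The groups did not overlap, and each iKO value was lower than the lowest WT value. By edgeR its log2 fold change was -0.81 (SE 0.16, adjusted p = 0.0121). The call was lost when WT 2 (adjusted p = 0.0665) or iKO 3 (0.0564) was left out, and after correction for transcript length (log2 -0.57, adjusted p = 0.0503).

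The other 4 members of the complex were not called. Becn1, which encodes the Beclin 1 subunit, ran from 36.5 to 42.8 CPM in WT and from 34.2 to 42.5 CPM in iKO (log2 -0.02, adjusted p = 0.953). Atg14, which directs the complex to autophagosome formation, was at 15.5, 16.0 and 13.5 CPM in WT against 43.0, 27.1 and 14.9 CPM in iKO. Only iKO 1 and iKO 2 stood above the WT range, and the log2 fold change of 0.92 (SE 0.33) had an adjusted p of 0.0980. Atg14 passed in 2 of 18 alternative fits, DESeq2 (adjusted p = 0.0304) and the fit without iKO 3 (0.0169). The latter left out the iKO liver within the WT range, and DESeq2 called 19.4% of all genes. Without WT 3 the edgeR adjusted p of Atg14 was 0.260. Uvrag, the partner of Beclin 1 in the endosomal form of the complex, had a log2 fold change of 0.28 and Ambra1, a scaffold of Beclin 1, one of -0.11, with adjusted p of 0.225 and 0.637.

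**Figure D2:**
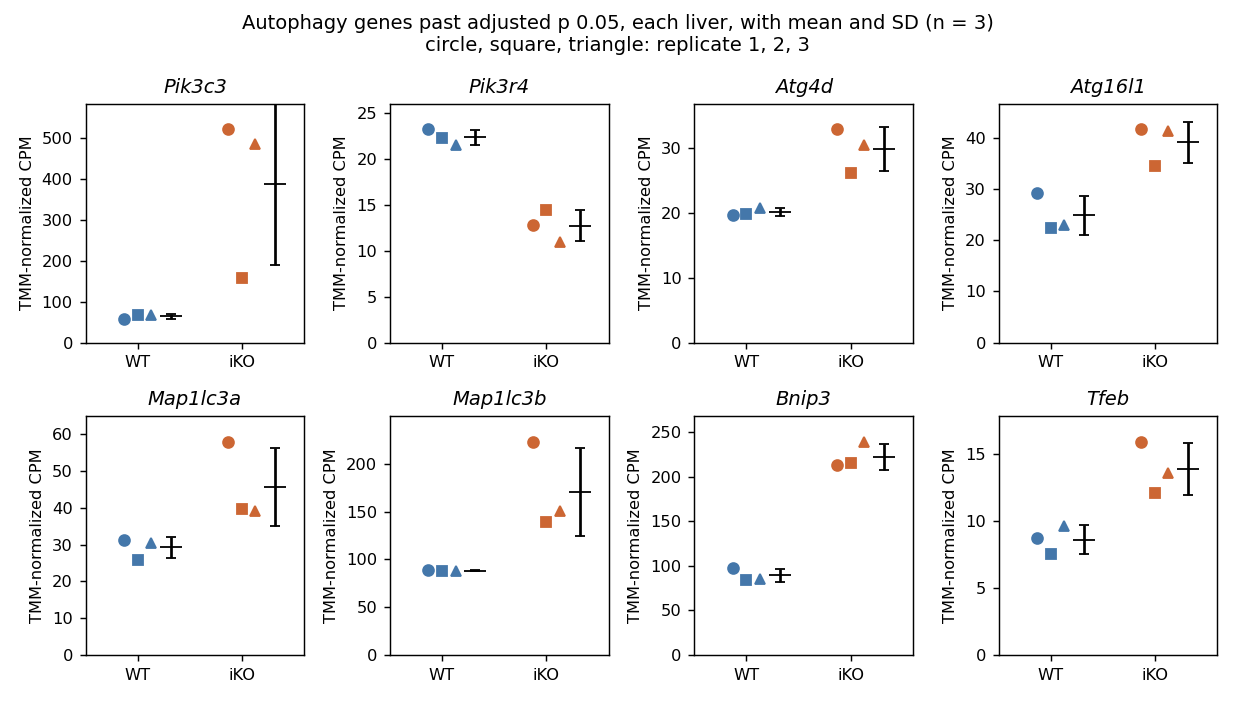
TMM-normalized CPM of the 8 called members in each liver (circle, square and triangle for replicates 1, 2 and 3) with the mean and SD at the right of each group, axes from 0. In every panel the WT and iKO points are apart, and Pik3c3 spreads most in iKO, from 158 to 521 CPM.

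Of the 5 initiation genes 0 were called by edgeR and 1, Ulk1, by DESeq2, and their median log2 fold change was -0.09. Ulk1 and Ulk2, the paired kinases that receive the signal from mTORC1 and AMPK, were the 2 with an unadjusted edgeR p under 0.05. That bound was passed by 4362 of all 13160 genes tested. The log2 fold changes of Ulk1 and Ulk2 had opposite signs in all 18 alternative fits. Ulk1 stood at 73.5, 63.4 and 87.5 CPM in WT against 168, 132 and 86.6 CPM in iKO, so that iKO 3 lay within the WT range of CPM. In TPM Ulk1 was above the WT range in iKO 3 too (33.1 against 31.8 in WT 3). Its log2 fold change was 0.78 (SE 0.25, adjusted p = 0.0597). Ulk1 passed in 5 of the 18 alternative fits. They were DESeq2 (adjusted p = 0.0197), limma on log2(FPKM + 1) (0.0443) and log2(FPKM + 0.1) (0.0442), length correction (0.0498) and the fit without iKO 3 (0.0278). That last fit left out the iKO liver within the WT range of CPM, and DESeq2 called 19.4% of all genes. Without WT 2 the edgeR adjusted p was 0.206. Ulk2 was at 72.6, 54.4 and 48.8 CPM in WT against 36.8, 51.3 and 30.7 CPM in iKO (log2 -0.57, SE 0.23, adjusted p = 0.114). iKO 2 fell within the WT range of Ulk2 in CPM and just below it in TPM (15.0 against 15.5 in WT 3).

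A ratio of paralogs within a library does not depend on how the library is scaled. The TPM of Ulk1 was 1.16, 1.34 and 2.06 times that of Ulk2 in the WT livers and 5.57, 3.10 and 3.55 times in the iKO livers. The mean log2 ratio was 0.56 ± 0.43 in WT and 1.98 ± 0.44 in iKO (SD, n = 3 each). The exact permutation test, 2-sided, gave p = 0.1, the smallest that 3 against 3 livers can give (0.175 adjusted over the 7 pairs compared).

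The other initiation genes showed no call. Rb1cc1, which encodes the scaffold FIP200, spread widely within groups, from 7.15 to 23.8 CPM in WT and from 11.2 to 23.6 CPM in iKO. Atg13 and Atg101, which link the kinase to FIP200, had log2 fold changes of -0.09 and -0.31 (adjusted p = 0.799 and 0.225). Atg101 passed in 1 of 18 alternative fits, the one with correction for transcript length (log2 -0.56, adjusted p = 0.0345).

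LC3 proteins coat the growing membrane, and Map1lc3b and Map1lc3a, which encode them, both rose. Map1lc3b, the main LC3 gene of most tissues, stood at 89.0, 87.9 and 88.1 CPM in WT against 223, 139 and 150 CPM in iKO. The WT livers lay within about 1 CPM of each other and all iKO livers were higher. iKO 1 stood highest in CPM, and its TMM factor of 0.780 was the lowest of the libraries. In TPM the WT livers ran from 59.8 to 78.3, and iKO 1, iKO 2 and iKO 3 were at 105, 95.7 and 107. The log2 fold change was 0.95 with an SE of 0.21 (adjusted p = 0.0189), and it was 0.95 after length correction too (adjusted p = 0.0199). It was not called when WT 2 (0.0818) or WT 3 (0.0563) was left out. Expected counts of Map1lc3b were not whole in all 6 libraries, and in the GENCODE annotation of GRCm38 an exon overlaps Zcchc14 on the other strand. The sources used here do not give whether counting used strand.

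Map1lc3a was at 31.3, 25.9 and 30.5 CPM in WT against 58.0, 39.8 and 39.2 CPM in iKO. The groups did not overlap, and the log2 fold change was 0.64 with an SE of 0.19 (adjusted p = 0.0482). This call was the least steady of the 8: it ended in each of the 6 fits that left out 1 library (adjusted p from 0.0508 without iKO 2 to 0.190 without WT 2), and after length correction the log2 fold change was 0.29 (adjusted p = 0.250). Its effective length of 996 bases lies among the shortest of the members. The TPM of Map1lc3a was 0.852, 0.713 and 0.838 times that of Map1lc3b in WT and 0.629, 0.696 and 0.631 times in iKO, lower without overlap (exact permutation p = 0.1, the smallest possible, 0.175 adjusted over the 7 pairs).

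Among the 5 cargo receptors Bnip3 rose and the others did not move past the threshold. Bnip3 encodes a receptor of the outer mitochondrial membrane that directs mitochondria to autophagosomes and is known as a hypoxia-induced gene. It stood at 97.3, 84.7 and 85.7 CPM in WT against 213, 215 and 240 CPM in iKO. Every iKO liver lay above every WT liver, and the spread within each group was small beside the gap. The log2 fold change was 1.32 with an SE of 0.17 (adjusted p = 0.00232), or 2.50-fold with a 95% interval of 1.92 to 3.25. Expected counts were not whole in 2 libraries, and the antisense gene Gm45507 overlaps an exon in the GENCODE annotation. The call held in all 6 fits that left out 1 library, as did that of Pik3c3, with adjusted p up to 0.0178 for Bnip3 and 0.0411 for Pik3c3.

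Sqstm1, which encodes p62, was at 412, 340 and 422 CPM in WT against 622, 443 and 375 CPM in iKO (log2 0.29, SE 0.24, adjusted p = 0.418). iKO 3 lay within the WT range. Nbr1, a relative of p62, ran from 130 to 173 CPM in WT and from 127 to 171 CPM in iKO. Optn (optineurin) ran from 58.9 to 72.1 and from 58.9 to 70.0 CPM, and Tax1bp1 from 50.3 to 101 and from 59.2 to 97.8 CPM. The log2 fold changes of these 3 receptors of ubiquitin-marked cargo lay between -0.03 and 0.06, with adjusted p of at least 0.911.

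The conjugation system held 2 risen genes of 10 and a median log2 fold change of 0.02. Atg16l1, which places the ATG12-ATG5 conjugate on the membrane, stood at 29.2, 22.4 and 23.1 CPM in WT against 41.7, 34.5 and 41.3 CPM in iKO. Its groups did not overlap in CPM (log2 0.65, SE 0.16, adjusted p = 0.0294). In TPM iKO 1 (15.5) lay within the WT range (13.9 to 15.7). On log2(FPKM + 1) Atg16l1 was not called (limma adjusted p = 0.119). The edgeR call ended without WT 2, WT 3, iKO 1 or iKO 3 (highest adjusted p 0.141, for WT 2). Atg4d, a protease of the family that trims LC3, was at 19.6, 19.9 and 20.8 CPM in WT against 33.0, 26.3 and 30.5 CPM in iKO (log2 0.57, SE 0.15, adjusted p = 0.0328). Its call held without iKO 2 and ended in the other 5 such fits (adjusted p up to 0.135, without WT 2), its TPM overlapped between groups, and its counts were not whole in all 6 libraries. An exon of Atg4d overlaps Kri1 on the other strand in the GENCODE annotation.

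Atg5, the target of ATG12, had the lowest log2 fold change of the 10. It stood at 43.4, 44.0 and 40.3 CPM in WT against 36.4, 32.1 and 30.1 CPM in iKO, without overlap, and its log2 fold change of -0.38 (SE 0.14) had an adjusted p of 0.104. Atg5 was called lower in 2 of 18 alternative fits, those of limma on log2(FPKM + 1) (adjusted p = 0.0442) and log2(FPKM + 0.1) (0.0447). Atg3, the E2-like enzyme of LC3, had the highest TPM of the 10, with 54.2, 46.7 and 45.4 CPM in WT against 53.2, 58.4 and 54.2 CPM in iKO (log2 0.18, adjusted p = 0.427). Atg7, the E1-like enzyme that activates LC3 and ATG12, had a log2 fold change equal to 0.25 (adjusted p = 0.434). The remaining enzymes and ATG12 itself, Atg4a, Atg4b, Atg4c, Atg10 and Atg12, lay between -0.24 and 0.11 on the log2 scale, with adjusted p of at least 0.528. Atg10, an E2-like enzyme for ATG12, had the lowest level per length of all members, 3.66 ± 0.662 TPM in WT and 2.60 ± 0.971 TPM in iKO (SD, n = 3 each).

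Of the 5 genes that bring lipid to the growing membrane 0 were called by edgeR and 0 by DESeq2. In edgeR 0 had an unadjusted p under 0.05, a bound that 4362 of all 13160 genes tested passed. Atg9a encodes the scramblase that travels in seed vesicles. It had the highest TPM of the 5, and stood at 82.4, 85.2 and 91.9 CPM in WT against 88.4, 68.6 and 68.4 CPM in iKO (log2 -0.20, adjusted p = 0.432). Wipi1 and Wipi2 encode readers of PI3P and had log2 fold changes of 0.21 and 0.24 (adjusted p = 0.579 and 0.419). Atg2a and Atg2b encode lipid transfer proteins. Atg2b was at 35.8, 31.2 and 30.8 CPM in WT against 28.3, 29.1 and 23.5 CPM in iKO, without overlap (log2 -0.27, adjusted p = 0.241), while Atg2a had a log2 fold change of 0.07. The TPM of Atg2a was 2.11, 2.32 and 2.43 times that of Atg2b in WT and 3.87, 2.62 and 4.26 times in iKO (exact permutation p = 0.1, 0.175 adjusted over the 7 pairs). TPM divides by the effective length, which for Atg2a was lower in iKO, as given below. By expected counts the ratio was 1.68, 1.85 and 1.91 in WT and 2.49, 1.84 and 2.61 in iKO, where iKO 2 lay within the WT range (exact permutation p = 0.3). The ratios Wipi1 to Wipi2 and Sqstm1 to Nbr1 overlapped between groups.

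Tfeb, the factor that turns on lysosome and autophagy genes, stood at 8.71, 7.503 and 9.62 CPM in WT against 15.9, 12.1 and 13.6 CPM in iKO. The groups did not overlap, and the log2 fold change was 0.69 with an SE of 0.18 (adjusted p = 0.0359). Its call held without iKO 2 and ended in the other 5 fits on 5 libraries (adjusted p 0.155 without WT 2).

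When Y-linked reads entered the edgeR model as a term, 0 of the 37 members were called, where 1.4% of all genes were. That contrast rests on WT 1, the WT library with such reads. All 8 called members kept their direction. Their CPM did not overlap between groups, so every iKO value already lay on the same side of WT 1. The direction was thus all but fixed in advance. The log2 fold changes were 2.77 for Pik3c3 (adjusted p = 0.118), 1.19 for Bnip3 (0.0797), 0.94 for Map1lc3b (0.221), 0.67 for Tfeb (0.284), 0.61 for Atg4d (0.249), 0.54 for Map1lc3a (0.376), 0.42 for Atg16l1 (0.377) and -0.87 for Pik3r4 (0.112). In the 4 libraries with Y-linked reads alone, where WT 1 is the only WT library, the log2 fold change was 2.78 for Pik3c3 and 1.2 for Bnip3.

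The table also bears on the mix of transcript forms, through an effective length for each gene and library. The authors' FPKM divides a gene's count by its effective length, so count over FPKM returns the length that RSEM used in that library, which moves only when the estimated mix of long and short transcripts moves. Single-form genes returned the same value in every liver (Bnip3 1707 bases). Of the 37 members 19 had an FPKM of at least 1 in all livers and a length that varied by at least 2% over the 6 livers. As that range spans both groups, a gap between groups can itself bring a gene into the test. The calls, adjusted p and shares without overlap given for lengths may thus lean toward a difference, for members and all genes alike. Of these 19, 5 differed between groups (limma adjusted p under 0.05), 1 longer and 4 shorter in iKO. Of the 3855 genes so tested 13.1% were called, 2.54% longer and 10.6% shorter, and 43.7% had no overlap between groups, as had 12 of the 19 members. This measure was added after the data were seen.

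Atg7 was the member that became longer. Its effective length was 3195, 3205 and 3135 bases in WT and 3662, 3639 and 3720 bases in iKO, about 15.6% longer (log2 0.21, SE 0.015, limma adjusted p = 0.00885). The spread within a group was small beside the difference, and the call held whichever library was left out, while the mRNA level of Atg7 was not called. Atg2a went from 5216, 5647 and 5228 bases to 4072, 4385 and 4146 bases (log2 -0.35, adjusted p = 0.0165). Optn went from 2435, 2476 and 2469 to 2155, 2288 and 2198 bases (log2 -0.15, adjusted p = 0.0228), and Ulk1 from 4966, 4960 and 5025 to 4528, 4723 and 4489 bases (log2 -0.12, adjusted p = 0.0266). Tfeb differed least, 2211, 2160 and 2187 against 2112, 2104 and 2100 bases (log2 -0.05, adjusted p = 0.0492). Of the 6 fits on 5 libraries, the Tfeb call was lost in all 6, those of Optn and Ulk1 in 5 each (they held without iKO 2) and that of Atg2a in 4 (adjusted p rose to 0.0638 for Atg2a without WT 3, 0.0859 for Optn without WT 2, 0.0980 for Ulk1 without iKO 1 and 0.136 for Tfeb without WT 3 or iKO 3). With the Y-linked term 0 of the 19 members were called by limma, and the log2 difference was 0.20 for Atg7 and -0.31 for Atg2a. The deposited values do not name the forms.

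**Figure D3:**
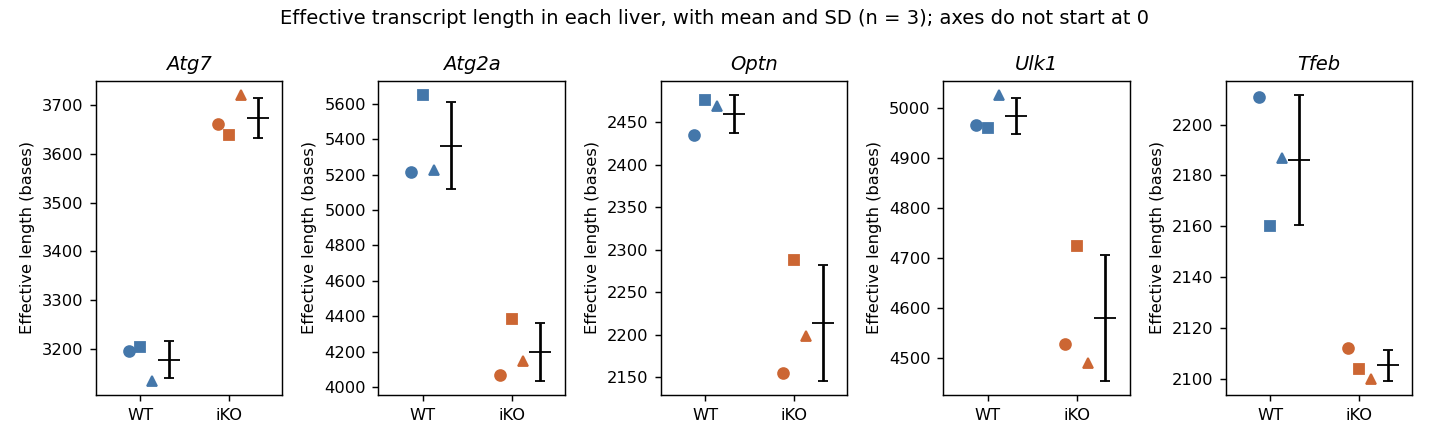
Effective transcript length in bases of the 5 members whose length differed between groups, each liver, with mean and SD (n = 3); the axes do not start at 0. Atg7 is longer in all 3 iKO livers, and Atg2a, Optn, Ulk1 and Tfeb are shorter.

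Beyond the core machinery, 143 tested genes of 7 related lists gave 18 called higher and 10 lower, 12.6% and 6.99%, beside 7.31% and 8.07% of all genes, with a median of 0.10. All 28 kept their direction in the 18 alternative fits. As their CPM did not overlap between groups, this was all but fixed in fits on fewer libraries or with the Y-linked term. Of the 28, 3 (Ctsc, Cebpb and Tsc1) were called whichever library was left out, and 12 were called after length correction. Without WT 2, 2 were called higher and 2 lower, and the single adjusted p reached 0.219 (Rubcn). With the Y-linked term 0 were called by edgeR and all 28 kept their direction. Expected counts of Ctsc were not whole in all 6 libraries, a sign that reads may be shared with other genes. Of the called genes named below, this also held for Rubcn, Retreg1, Epg5, Sgsh, Ddit3 and Depdc5.

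Further autophagy factors held 2 higher and 1 lower of 11 (median 0.43). Vmp1, a membrane protein needed to shape the autophagosome, went from 94.7 ± 8.03 to 196 ± 44.3 CPM (SD, n = 3 each, log2 1.05, adjusted p = 0.0121 by edgeR). The survival gene Bcl2l1 rose by 0.89 and Rubcn, a brake on the PI3-kinase complex, fell by 0.49 on the log2 scale. Among 18 further cargo receptors 2 rose and 0 fell (median 0.28). Retreg1, a receptor for the endoplasmic reticulum, went from 72.3 ± 13.4 to 154 ± 38.9 CPM (SD, n = 3 each, log2 1.09, edgeR adjusted p = 0.0161), and the glycogen receptor Stbd1 had a log2 fold change equal to 0.67 (edgeR adjusted p = 0.0474). After length correction the calls of Rubcn (log2 -0.23, edgeR adjusted p = 0.358) and Stbd1 (0.58, 0.0901) ended.

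Of 15 fusion genes 1 rose, the SNARE gene Vamp8 (log2 0.75), and 1 fell, the tether gene Epg5 (-0.67). After length correction these were 0.28 and -0.38 and neither was called (edgeR adjusted p = 0.245 and 0.131). Of 34 lysosomal genes 0 rose and 3 fell, with a median of 0.03. These were Ctsc, the protease cathepsin C (log2 -1.37, edgeR adjusted p = 0.00802), Sgsh, a heparan sulfatase (-1.20), and Lipa, the lysosomal acid lipase, which went from 292 ± 36.96 to 146 ± 25.2 CPM (SD, n = 3 each). Macrophages also express Ctsc and Lipa, and the Kupffer markers fell as given above. Whether macrophages had a part in these values was not tested, and the other 31 lysosomal genes were not called. Of 15 subunits of the V-ATPase, the proton pump of the lysosome, 4 rose and 0 fell (median 0.30): Atp6v1f (log2 0.89), Atp6v1e1 (0.75), Atp6v0e (0.68) and Atp6v0b (0.65). After length correction the log2 fold changes of these 4 were 0.31, 0.48, 0.23 and 0.29 and none was called (edgeR adjusted p from 0.0602 to 0.302).

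**Figure D4:**
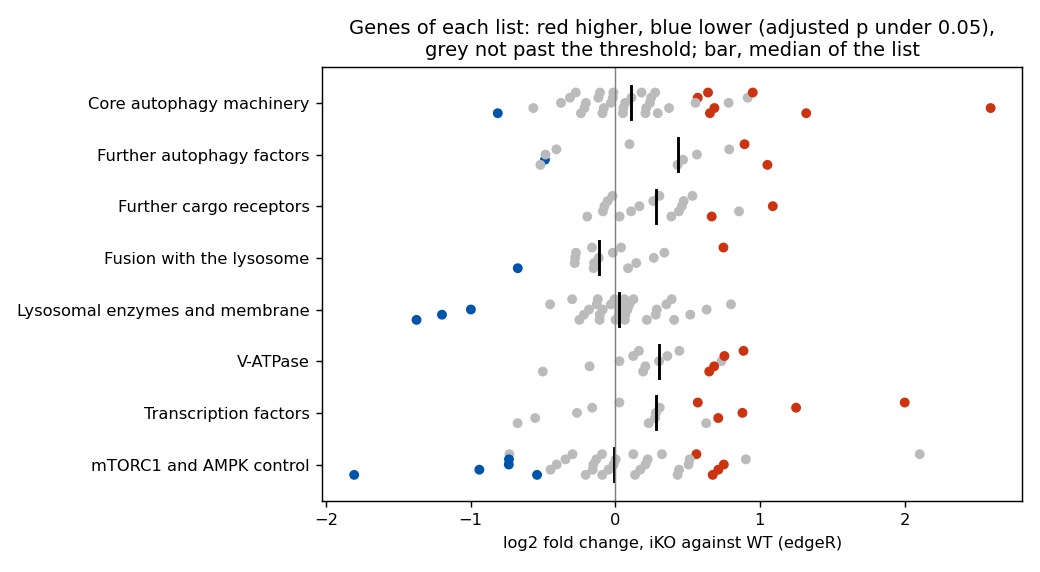
Log2 fold change, iKO against WT, of every tested gene of the core machinery and of 7 related lists; red and blue points passed adjusted p 0.05 in edgeR, grey points did not, and the bar is the median. The medians lie between -0.11 (fusion with the lysosome) and 0.43 (further autophagy factors).

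Of 15 transcription factors linked to autophagy 5 rose and 0 fell (median 0.28). Cebpb went from 82.9 ± 12.9 to 332 ± 104 CPM (SD, n = 3 each, log2 2.00, edgeR adjusted p = 0.00238). Xbp1 rose by 1.25, Ddit3 by 0.88 and Foxo3 by 0.71 on the log2 scale, and Foxo1 by 0.57. Foxo1 and Foxo3 had larger values after length correction, 0.84 and 1.00, while the Ddit3 call ended (log2 0.56, edgeR adjusted p = 0.125). Among 35 genes of mTORC1 and AMPK control 4 rose and 5 fell (median -0.01). The 3 risen Lamtor genes (Lamtor3, Lamtor4 and Lamtor5), subunits of the lysosomal anchor of mTORC1, had log2 fold changes of 0.71, 0.75 and 0.67, and 0.47, 0.30 and 0.25 after length correction, where none was called (edgeR adjusted p from 0.104 to 0.276). Sesn3 fell from 4.37 ± 0.947 to 1.24 ± 0.460 CPM and Tsc1, part of the brake on mTORC1, from 33.2 ± 0.881 to 17.3 ± 1.63 CPM (SD, n = 3 each, edgeR adjusted p = 0.0109 and 0.00473). Rptor and Depdc5 fell by 0.74 and 0.73 on the log2 scale, and after length correction they were at -0.48 and -0.45 and not called (edgeR adjusted p = 0.108 and 0.141).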

How the data were processed

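RNA-seq of 3 WT and 3 iKO livers was compared. The submitters' processing notes list HISAT2 (2.0.4), Bowtie2 (2.2.5), RSEM (1.2.12) and the build mm9. The authors deposited expected counts, which need not be whole (64.9% to 68.3% of values were, within 0.001). They also deposited FPKM, scaled by depth and transcript length, and the deposited TPM sum to 1 total in each library. Rounded expected counts of all genes entered edgeR 4.0.16 (R 4.3.3) with filterByExpr, TMM factors and the robust quasi-likelihood F test, Benjamini-Hochberg adjusted, with a threshold of 0.05. The SE equals the log2 fold change divided by the root of F. Whether group spread or counting error limits the precision at these totals was not tested.

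Members and lists were chosen with earlier results of these data known, and the promoters and motifs shown were chosen after values were seen. The rule named all members (3 of them are counted but not reported here singly), Nek7 and up to 4 called genes of each related list. Foxo1, Lamtor3, Lamtor5, Depdc5, Zcchc14, Kri1, Gm45507, Hnf4a, Ddx3y and Kdm5d were named after their values were seen. Alternatives were RLE and upper-quartile factors, a filter of 1 count in any library, DESeq2 1.42.0, limma 3.58.1 (voom, and log2(FPKM + 1) or log2(FPKM + 0.1)), a replicate block, and fits without each library. Further ones were a lowess length offset (span 0.3, FPKM of at least 0.2), a term for Y-linked reads (over 10 expected counts of Ddx3y and Kdm5d), both together, and the libraries over that bound. Paralog ratios had an exact permutation test (scipy 1.17.1). The fits were tested on simulated data.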

Additional observations from a re-analysis of the deposited data

How the results depend on the processing

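Pik3c3, Bnip3, Map1lc3b, Tfeb, Atg16l1, Map1lc3a, Atg4d and Pik3r4 kept their direction in all 18 alternative fits. As their CPM did not overlap between groups, fits on fewer libraries or with the Y-linked term could hardly reverse it. Members called numbered 4 higher and 2 lower with limma on log2(FPKM + 1) and also on log2(FPKM + 0.1), scales on which the median of all genes was -0.12 and -0.20. They were 0 and 0 with the Y-linked term, among libraries that hold such reads, and with that term and the length correction together. Leaving out 1 library gave 2 to 6 higher and 0 to 1 lower. Over the whole table calls were 421 and 427 higher on the 2 FPKM scales. They were 78 higher and 106 lower with the Y-linked term, 66 and 77 in the libraries with such reads alone and 85 and 80 with that term and the length correction. Without 1 library they ran from 228 to 922 higher and from 263 to 1096 lower. Genes of the related lists called higher were 8 after length correction, those called in either direction 0 with the Y-linked term and in the libraries with such reads alone, and without 1 library 2 to 16 higher and 2 to 10 lower. Effective length calls among members, where called means longer or shorter, were 0 and 0 with the Y-linked term and in the libraries with such reads alone, and without 1 library 1 to 3 longer and 0 to 4 shorter. The cause of these changes was not tested.

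Whether the replicate numbers pair the livers cannot be told from so few livers per group. Deviations from the group means correlated at 0.207, 0.218 and 0.0458 for numbers 1, 2 and 3. iKO 1 correlated best with WT 1 and iKO 2 with WT 2, but iKO 3 correlated best with WT 2 (0.334). With a replicate block 4 members were called higher and 1 lower, beside 5.87% and 7.13% of all genes. In effective length 2 members were then called shorter, and Atg7 was still called longer (limma adjusted p = 0.0343).

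Uncalled members near 0 changed sign, none of them past the threshold. On log2(FPKM + 1) and log2(FPKM + 0.1) these were Atg3 (-0.0036 and -0.0042), Atg4b (-0.077 and -0.086), Atg7 (-0.17 and -0.18), Rb1cc1 (-0.076 and -0.088) and Tax1bp1 (-0.066 and -0.069). With RLE factors and DESeq2 they were Becn1 (0.0044 and 0.0045) and Optn (0.0062 and 0.0065). After length correction they were Ambra1 (0.16), Atg13 (0.082), Atg2b (0.017) and Nbr1 (0.20). With the Y-linked term and in the libraries with such reads alone they were Rb1cc1 (-0.44 and -0.44), Tax1bp1 (-0.319 and -0.317) and Wipi1 (-0.156 and -0.145), and the length of Atg5 (-0.00026 in both). With both corrections they were Ambra1 (0.21), Atg3 (-0.072), Atg9a (0.038), Nbr1 (0.00067), Rb1cc1 (-0.18), Tax1bp1 (-0.24) and Wipi1 (-0.30). Leaving out 1 library gave Rb1cc1 from -0.31 to 0.38, Atg13 from -0.27 to 0.087, Becn1 from -0.071 to 0.085, Wipi1 from -0.0012 to 0.44, Atg2a from -0.032 to 0.19, Atg4b from -0.033 to 0.23, Atg4c from -0.25 to 0.062, Atg7 from -0.0030 to 0.41, Nbr1 from -0.14 to 0.081, Optn from -0.079 to 0.073, Tax1bp1 from -0.18 to 0.29, the effective length difference of Becn1 from -0.0062 to 0.014 and the effective length difference of Atg5 from -0.0032 to 0.029.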
